A study of Mus musculus with 30 samples.

Results

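Mouse 4T1 mammary carcinoma cells that had come off the dish and floated after 72 h with vesicles from 27-hydroxycholesterol-exposed neutrophils were compared with attached 4T1 cells that had received vesicles from vehicle-exposed neutrophils for the same time. The libraries were taken by their labels, 4 floating against 5 attached, which made 9 of the 29 libraries in the count table. A library is labelled as replicate 5 of the floating cells at 72 h, the 30th of the series. Its description says that it was an outlier and was left out by the authors, and it was not analysed here. All 13008 genes that passed a filter on low counts, of 39253 listed, were tested.

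4T1 is a line from a mammary tumour of a BALB/c mouse, and here it was grown as a flat culture in complete medium whose serum had been depleted of vesicles. Small extracellular vesicles (sEVs) are membrane-bound particles that cells release. They were isolated with a commercial kit from primary neutrophils, sorted as Ly6G+ cells of wild-type BALB/c females, after 48 h with the solvent DMSO or with 10 µM 27-hydroxycholesterol (27HC). Cells under 27HC-sEVs lost adherence, so the attached and the floating (non-adherent) cells were collected separately, at 48 and at 72 h. The DMSO-sEV cells were collected attached. Every group received vesicles, and no floating DMSO-sEV cells were among the samples, so the kind of vesicle and detachment cannot be told apart in this comparison. Attached 27HC-sEV cells at 72 h (5 libraries) are given beside it for that reason. The labels do not say whether replicates were separate cultures or vesicle batches, so the spread behind each p-value is that among the libraries and may be only technical.

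27HC is an oxysterol made from cholesterol. In cells, oxysterols hold back the SREBP factors, which switch on the enzymes of cholesterol synthesis, and they activate the nuclear receptors LXR, which switch on sterol export. The integrated stress response is a separate programme in which the kinases of the factor eIF2 slow protein synthesis and the factors ATF4 and CHOP raise genes for amino acid supply. Epithelial cells read attachment through integrins and the actin skeleton, and YAP and TAZ with the TEAD factors carry part of that signal to the nucleus.

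The floating libraries held 18.8 to 24.8 M estimated reads and the DMSO-sEV libraries at 72 h 21.2 to 26.6 M. Values are CPM, read counts as a share of the library's total, scaled by TMM factors, which correct for a few abundant genes taking up reads, and a change is the log2 fold change of floating 27HC-sEV against attached DMSO-sEV cells, with its standard error (SE). The DMSO-sEV libraries at 72 h stood in separate sets. Replicates 1 to 3 had TMM factors of 0.84 to 0.90 and 82838 to 100650 summed CPM of ribosomal protein genes, while replicates 4 and 5 had factors of 1.0013 and 0.9981 and summed CPM of 55174 and 54902. At 48 h the same sets did not overlap but lay closer together, with 55027, 53697 and 48658 CPM in 1 to 3 and 41885 and 43989 CPM in 4 and 5. The labels name no batch, so counts with either set, taken at both times, are given beside the lists that turned from mostly higher to mostly lower members with it, and the medians of the lists with at least 9 tested genes are plotted for both sets. Carcinoma markers were present in every library, with 12 of 12 tested and summed levels of 2628 to 2811 CPM in floating and 3749 to 4813 CPM in DMSO-sEV cells. Of 17 neutrophil markers 3 were tested, and their sum (166 to 207 CPM in DMSO-sEV and 43.8 to 56.7 CPM in floating cells) was mostly Mmp9, while Ly6g, Mpo, Elane, Csf3r, Itgam, Ltf and Mmp8 were at 0 in all 9 libraries. Other granulocyte markers were higher in floating cells, at low levels. S100a8 was at 0.16 to 0.51 CPM in DMSO-sEV and 1.05 to 1.49 CPM in floating cells, S100a9 had 0 reads in the 5 DMSO-sEV libraries and 26 in the 4 floating ones (0.14 to 0.54 CPM, in each of them), and Ngp 0 and 6 reads. Cxcr2 went the other way, with 29 and 5 reads. The part of these markers in the results was not tested. Macrophage markers summed to 10.3 to 14.3 and 19.1 to 21.9 CPM, lymphocyte markers to at most 0.30 and 0.23, fibroblast markers to 28.6 to 31.9 and 26.3 to 36.3, endothelial markers to 4.25 to 9.44 and 2.71 to 3.90, and erythroid and platelet markers to 0.35 to 0.67 and 0.79 to 1.55 CPM. The fibroblast sum joined opposite changes. Postn was at 22.1 to 25.1 CPM in DMSO-sEV and 3.36 to 4.97 CPM in floating cells, and Pdgfra at 5.71 to 6.45 and 21.7 to 29.1 CPM.

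**Figure D1:**
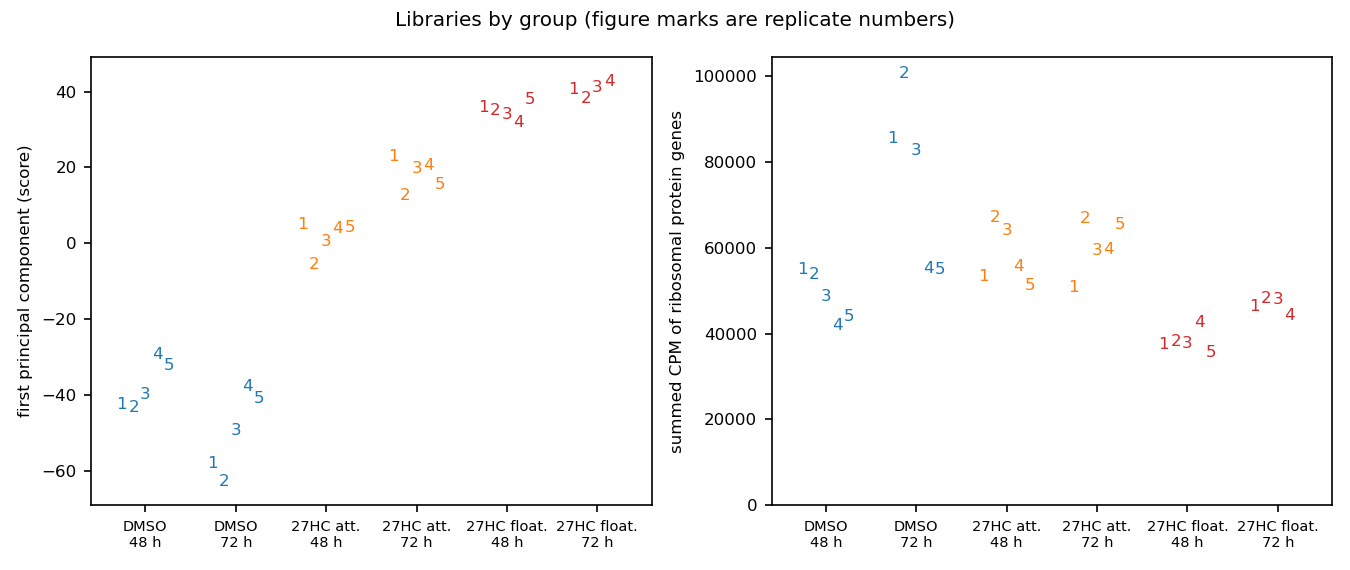
Score on the first principal component (left) and summed CPM of ribosomal protein genes (right) for each of the 29 libraries, by group, with att. for attached and float. for floating, and the replicate number as the mark. Floating cells at 72 h lie between 38.3 and 42.8 on the first component and DMSO-sEV cells at 72 h between -62.6 and -37.8, with replicates 4 and 5 of the latter apart from replicates 1 to 3.

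At an adjusted p under 0.05 (edgeR's quasi-likelihood test, Benjamini-Hochberg adjustment over all genes), 4980 genes were higher (38.3%) and 4705 lower (36.2%) in floating cells. At least a 2-fold change was called for 1266 genes that were higher (9.73%) and 1130 that were lower (8.69%). Of all genes, 31.8% lay higher and 29.3% lower in every floating library than in every DMSO-sEV library. The median over all genes was 0.028, so a list's median can be read against a value near 0, and its counts against 38.3% higher and 36.2% lower. With replicates 1 to 3 as the DMSO-sEV group, 5133 genes were higher and 4975 lower, and with replicates 4 and 5 alone 4695 were higher and 3860 lower, with 474 at least 2-fold lower. Log2 fold changes also moved with transcript length, so every value was recomputed with offsets that take the trends of counts with transcript length and GC content out of each library. With these offsets 4465 of 12397 genes were higher and 4231 lower, at least 2-fold in 848 and 516, and 69.4% of the genes called without them were called in the same direction. Where the text gives a value with offsets, it is from that fit.

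The largest increase among well expressed genes (mean log2 CPM of at least 3) was in Prl2c3, a proliferin of the prolactin family. Its DMSO-sEV libraries, in the order of replicates 1 to 5, held 1.98, 2.45, 2.95, 1.24 and 1.20 CPM, and the floating libraries 1 to 4 held 57.5, 55.0, 52.9 and 49.3 CPM (log2 fold change 4.81, SE 0.18, edgeR adjusted p = 1.40e-18). Its near-identical relative Prl2c2 moved alike (4.98), and reads of this family can be split between copies, so the values of each are uncertain. Dio2, the deiodinase that makes active thyroid hormone, went from 2.24, 2.36, 2.58, 1.84 and 2.13 CPM to 37.1, 40.1, 38.8 and 40.0 CPM (log2 fold change 4.14, SE 0.11, edgeR adjusted p = 8.32e-22). Lcn2, lipocalin 2, an iron-carrier binding protein of epithelia and neutrophils, was at 9.02, 9.72, 9.99, 7.44 and 6.80 CPM in DMSO-sEV cells and at 92.7, 119, 93.1 and 155 CPM in floating cells, a 13.4-fold increase. In each of Prl2c3, Dio2 and Lcn2 the lowest floating library was far above the highest DMSO-sEV library. The other members of the 12 largest increases were Gpnmb, Tgfbr3, Steap3, Slc7a11, Lrp1, Xdh (xanthine dehydrogenase, 2.82), Ptgs1, Mmp13 and Camk1d (a calcium-dependent kinase, 2.64).

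The largest decreases were mostly in sterol synthesis and its regulation, with Idi1, Cyp51, Insig1, Acat2, Msmo1, Lss, Hmgcs1 and Fdps among the 12. The others were Ccn2, Fgfbp1, Ifi47 and Ctsw. Fgfbp1, which releases fibroblast growth factors from the matrix, was at 144, 152, 117, 84.2 and 86.4 CPM in DMSO-sEV cells and at 5.83, 5.05, 3.89 and 5.29 CPM in floating cells (log2 fold change -4.54, SE 0.19, edgeR adjusted p = 1.11e-17). The gene for cathepsin W, Ctsw, fell from 52.2, 59.5, 50.5, 44.7 and 46.3 CPM to 4.77, 5.32, 4.53 and 5.14 CPM (log2 fold change -3.35, SE 0.10, edgeR adjusted p = 5.25e-21). Neither gene's groups overlapped, and in both the attached 27HC-sEV cells lay between, at 15.6 CPM (SD 1.31, n = 5) for Fgfbp1 and 16.1 CPM (SD 1.57, n = 5) for Ctsw.

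**Figure D2:**
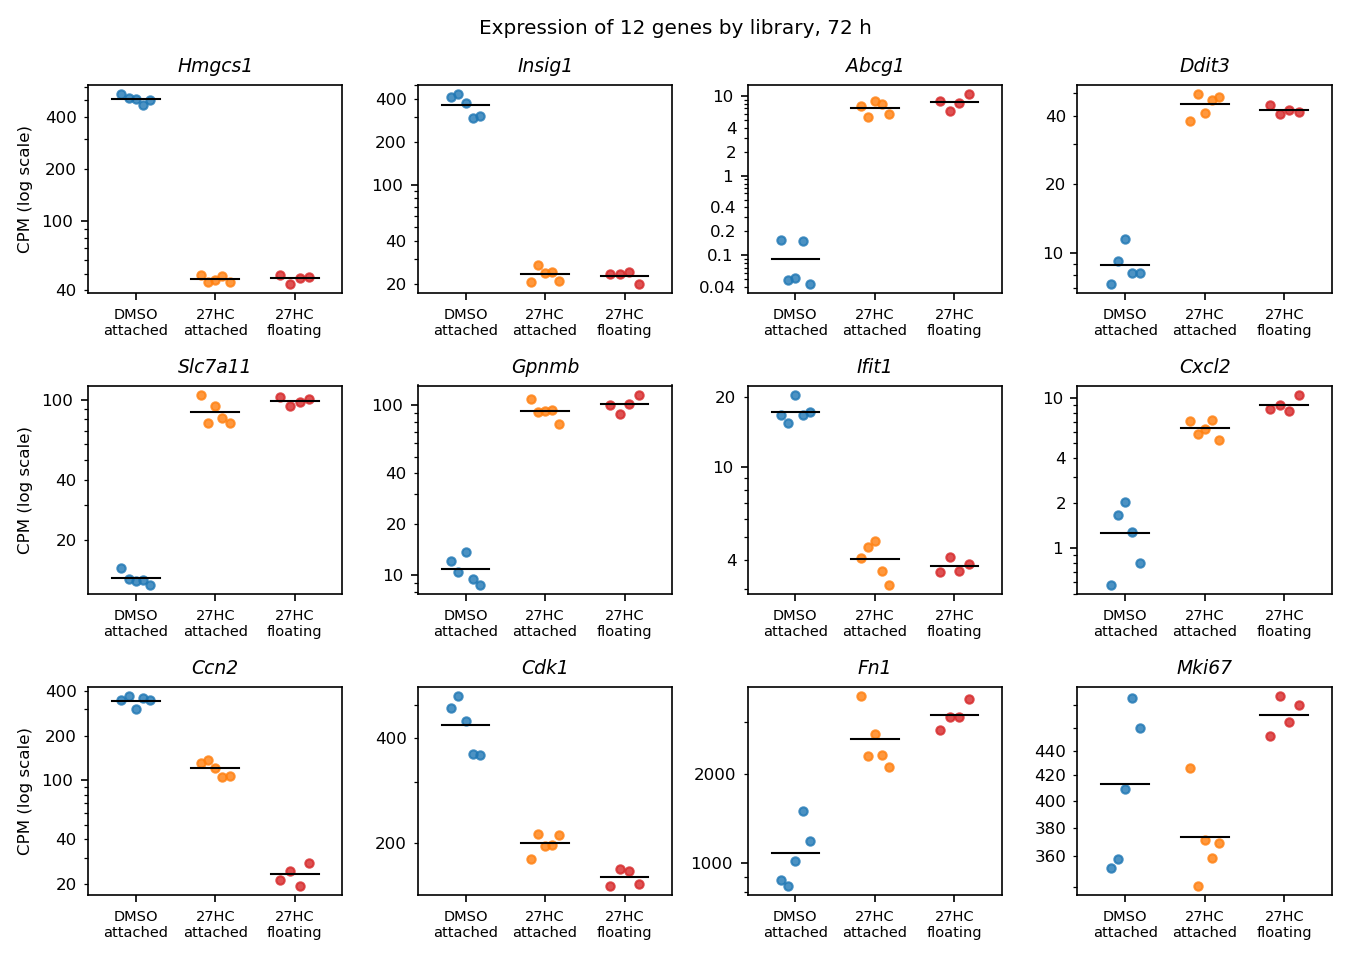
CPM on log axes of 12 genes in each library at 72 h, in attached DMSO-sEV, attached 27HC-sEV and floating 27HC-sEV cells, with points for libraries and a line for the group mean. For Hmgcs1 and Ddit3 the points of attached and floating 27HC-sEV cells overlap, Ccn2 is lowest in floating cells, and for Mki67 floating and DMSO-sEV cells overlap while attached 27HC-sEV cells lie below the floating ones.

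Genes of cholesterol synthesis fell together. All 21 of 21 tested genes of the mevalonate and cholesterol pathway were called lower, against 36.2% of all genes, with a median of -2.81 and no overlap between groups in any of them. Hmgcs1, which makes the precursor that HMG-CoA reductase turns into mevalonate, was at 545, 518, 510.2, 472 and 506 CPM in DMSO-sEV and 48.8, 43.8, 47.3 and 47.5 CPM in floating cells (log2 fold change -3.44, SE 0.053, edgeR adjusted p = 9.71e-28). Idi1, the isomerase of the isoprene units, was at 968, 1068, 902, 669 and 647 CPM and 24.1, 23.7, 23.8 and 20.05 CPM in the same order, a 37.1-fold decrease. Cyp51, which removes a methyl group from lanosterol, fell by the next largest amount in the list (-4.49, adjusted p = 3.06e-18), followed by Acat2, a thiolase that joins acetyl-CoA units (-3.61), Msmo1, a sterol oxidase (-3.53), Lss, lanosterol synthase (-3.49), and Fdps, farnesyl diphosphate synthase (-3.42). The list's median was -2.92 with DMSO-sEV replicates 1 to 3 and -2.62 with replicates 4 and 5. Ggps1, which makes geranylgeranyl diphosphate, did not keep this direction. It was not called with replicates 4 and 5 (-0.083, adjusted p = 0.225) and was called higher with offsets (0.11, adjusted p = 0.0183), where the other 20 genes were lower.

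The stretch of the Hmgcs1 promoter that holds a sterol response element is shown because SREBP factors are known to act on this gene. It is read 5′ to 3′ on the strand of the gene, with the match in capitals, and comes from RefSeq (GRCm38.p6, chr13:119690184-119690252, plus strand).
Hmgcs1: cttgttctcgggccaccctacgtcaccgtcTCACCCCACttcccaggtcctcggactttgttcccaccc
Promoter windows of 300 bases (250 before to 50 after the start) were available for 10203 of 13008 tested genes. The motif searched was TCACNCCAC, on both strands, and 137 windows held it (1.34%), among them 1 of 16 of the sterol synthesis list. Stretches shown here and further on were chosen with the fold changes known, all from RefSeq in the same build, a match is a description of letters and not a bound site, and motifs outside the window were not searched.

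Regulators of sterol supply did not move as one. Of 15 tested genes, 7 were higher and 6 lower (6 and 7 with offsets, 6 and 7 with DMSO-sEV replicates 1 to 3, 7 and 5 with replicates 4 and 5). Insig1, which keeps SREBP factors in the endoplasmic reticulum and is itself their target, fell from 411, 433, 373, 294 and 302 CPM to 23.5, 23.6, 24.5 and 20.2 CPM (log2 fold change -3.98, SE 0.11, edgeR adjusted p = 8.59e-22). The sterol carrier gene Stard4 fell too (-2.35, adjusted p = 8.59e-22). In contrast, genes of lipoprotein uptake were among those that rose. Lrp1, a large endocytic receptor, went from 33.5, 36.0, 45.1, 67.9 and 49.9 CPM to 315, 357, 348 and 375 CPM (log2 fold change 2.90, SE 0.18, edgeR adjusted p = 4.95e-14), with 1.53 under offsets, and Vldlr, the VLDL receptor, rose by 2.20 on the log2 scale.

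LXR receptors and sterol export or storage genes had 9 of 14 higher and 1 lower, with a median of 0.63. Abcg1 and Abca1, transporters that hand cholesterol to lipoproteins, were close to undetected in DMSO-sEV cells. Abcg1 held 0.157, 0.0491, 0.0526, 0.150 and 0.0445 CPM there, from 10 reads over the 5 libraries, and 8.57, 6.53, 8.22 and 10.6 CPM in floating cells (log2 fold change 6.43, SE 0.33, edgeR adjusted p = 1.27e-15). For Abca1 the DMSO-sEV values were 0.0522, 0.0982, 0, 0 and 0.0889 CPM, from 5 reads in all, and the floating values 1.53, 1.05, 1.43 and 0.856 CPM. Every floating library lay above every DMSO-sEV library in both transporters, although the size of a fold change from so few reads is imprecise. Apoe, which carries cholesterol out of cells, rose by 0.96 (adjusted p = 0.000205). Fatty acid synthesis and desaturation genes were mostly lower, 15 of 23 with 1 higher (median -0.53). They included Fads2, the delta-6 desaturase (-1.76, adjusted p = 2.32e-14), and Acsl3, a ligase that activates fatty acids (-1.59, adjusted p = 7.38e-10), and the gene called higher was Acsl1, another ligase (0.41, adjusted p = 3.71e-05).

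Regulators of the integrated stress response were higher in 15 of 19 tested genes and lower in 2, against 38.3% and 36.2% of all genes, with a median of 1.18. Ddit3, which encodes CHOP, was at 7.36, 9.28, 11.5, 8.16 and 8.18 CPM in DMSO-sEV and 44.6, 40.7, 42.2 and 41.4 CPM in floating cells (log2 fold change 2.25, SE 0.12, edgeR adjusted p = 2.40e-15). Ppp1r15a, which encodes the phosphatase subunit GADD34 that restores eIF2, was at 13.1, 9.62, 14.1, 15.11 and 13.6 CPM and 41.6, 39.8, 40.4 and 42.3 CPM (log2 fold change 1.64, SE 0.093, edgeR adjusted p = 7.99e-15). Both genes were several times higher in each floating library than in any DMSO-sEV library. The stress-induced inhibitor of mTORC1 signalling Sesn2 rose by 1.46. The members that fell were Ddit4, another mTORC1 inhibitor (-0.32, adjusted p = 7.05e-06), and Eif2ak4, the kinase GCN2 that senses amino acid shortage (-0.19, adjusted p = 0.0365), whose groups overlapped and which was not called in 9 of 24 alternatives (adjusted p = 0.556 with DMSO-sEV replicates 1 to 3).

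Amino acid transporters were higher in 14 of 17 genes and lower in 1 (median 0.82, and 0.44 with offsets). Slc7a11, the cystine importer, rose from 14.6, 12.8, 12.5, 12.7 and 12.05 CPM to 103, 93.1, 97.5 and 101 CPM (log2 fold change 2.93, SE 0.10, edgeR adjusted p = 1.78e-19). Slc6a9, a glycine transporter, rose by 2.56 (adjusted p = 2.00e-17), while Slc7a6, a carrier of cationic and neutral amino acids, fell by 0.44 with overlapping groups (adjusted p = 0.000614). Enzymes of amino acid and one-carbon synthesis were split, 8 higher and 9 lower of 19. Aldh1l2, a folate enzyme of mitochondria, rose by 2.69 (adjusted p = 3.17e-14) and Gpt2, an alanine transaminase, by 1.07. On the other side stood Cth, which makes cysteine by transsulfuration (-1.61, adjusted p = 3.46e-16), and Shmt1, the cytosolic serine hydroxymethyltransferase (-0.70). Cytosolic tRNA synthetases had 11 higher and 8 lower of 20, with Aars, for alanine, at 0.69 and Sars, for serine, at 0.62 against Dars, for aspartate, at -0.70 and Kars, for lysine, at -0.41. Sars was called in all 24 alternatives (0.36 to 0.68). The others came close to 0 in some, with Aars at 0.043 to 0.86, Dars at -0.82 to -0.046 and Kars at -0.47 to -0.00095. Aars and Dars missed the threshold in 1 alternative each and Kars in 2.

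Elements bound by ATF4 together with C/EBP proteins share the letters TGATGNAA. They were found in 5 of 18 promoter windows of the stress response regulators (27.8%), against 2.68% of all windows, and in Slc7a11. These 3 stretches, each 5′ to 3′ on the gene's strand with the match in capitals, are from genes called higher (Atf3, an early stress factor, log2 fold change 1.55, at chr1:191183406-191183473 on the minus strand, Chac1, which breaks down glutathione, 1.19, at chr2:119351019-119351086 on the plus strand, and Slc7a11 at chr3:50443642-50443709 on the minus strand).
Atf3: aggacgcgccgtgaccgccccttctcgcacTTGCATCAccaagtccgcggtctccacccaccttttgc
Chac1: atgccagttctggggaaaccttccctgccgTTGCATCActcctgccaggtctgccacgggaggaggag
Slc7a11: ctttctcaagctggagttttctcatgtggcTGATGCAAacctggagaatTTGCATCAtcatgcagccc
In Atf3 and Chac1 the match lies on the opposite strand and so reads as the reverse complement, and Slc7a11 holds a match on either strand.

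Genes of the unfolded protein response and endoplasmic reticulum chaperones had 18 higher and 3 lower of 33 (median 0.35). This count moved with the DMSO-sEV libraries used, from 16 higher and 9 lower with replicates 1 to 3 to 30 and 2 with replicates 4 and 5. Ero1b, an oxidase that forms disulfide bonds, rose by 1.79 (adjusted p = 3.34e-11), and Crebrf, a regulator of the stress factor CREB3, by 1.29 (adjusted p = 1.19e-17). Sec61b, a subunit of the protein channel of that membrane, fell (-1.12, adjusted p = 5.53e-07), as did Derl2, which helps to export misfolded proteins (-0.53, adjusted p = 1.83e-05). Derl2 missed the threshold in 1 of 24 alternatives and ranged from -0.71 to -0.091, and Sec61b was called in all of them (-1.39 to -0.32). Heat shock chaperones had 6 higher and 15 lower of 27, but 11 higher and 10 lower with offsets. The inducible Hspa1b rose from 45.4, 32.8, 52.5, 43.7 and 39.5 CPM to 137, 114, 131 and 122 CPM (log2 fold change 1.56, SE 0.10, edgeR adjusted p = 2.25e-13) and Hspa4l by 1.39, while the mitochondrial co-chaperone Hspe1 (-1.50) and the HSP70 cofactor Bag2 (-0.94) fell.

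Lysosomal genes were higher in 24 of 29, against 38.3% of all genes, and lower in 3, with a median of 0.74 that was 0.75 with offsets. Gpnmb, a glycoprotein of lysosomes and melanosomes, had the largest increase, from 12.2, 10.5, 13.8, 9.55 and 8.85 CPM to 100.4, 89.5, 101 and 115 CPM (log2 fold change 3.22, SE 0.17, edgeR adjusted p = 1.43e-15). Grn, the precursor of granulins, was at 73.1, 64.2, 69.7, 59.7 and 52.1 CPM in DMSO-sEV and 193, 198, 197 and 238 CPM in floating cells, a 3.24-fold increase. No floating library of either gene came near a DMSO-sEV library. Ctsh, cathepsin H (-0.73, adjusted p = 0.00021), and Cd63, a tetraspanin of late endosomes (-0.56, adjusted p = 0.00324), were called lower with overlapping groups. Both depended on DMSO-sEV replicates 1 to 3, since against replicates 4 and 5 alone Ctsh had -0.091 and Cd63 had 0.10.

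The letters CACGTG, the core of the element bound by TFEB and its relatives, were in 9 of 24 promoter windows of lysosomal genes (37.5%) against 11.8% of all windows. Stretches from Gaa, acid alpha-glucosidase (log2 fold change 1.58, chr11:119267793-119267858, plus strand), and Mcoln1, a calcium channel of the lysosome (0.99, chr8:3500418-3500483, plus strand), are shown with the match in capitals.
Gaa: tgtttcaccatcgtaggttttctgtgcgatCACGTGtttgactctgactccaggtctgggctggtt
Mcoln1: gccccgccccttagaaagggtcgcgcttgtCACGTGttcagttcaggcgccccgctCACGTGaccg
Other factors bind the same letters, among them MYC and USF proteins.

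Subunits of the proton pump that acidifies lysosomes were 5 higher and 4 lower of 17. The counts were 9 and 2 with offsets, 6 and 6 with DMSO-sEV replicates 1 to 3, and 9 and 1 with replicates 4 and 5. Those named by the rule were Atp6ap1 at 0.62 and Atp6v0a2 at 0.56 on one side and Atp6v1g1 at -0.83 and Atp6v1f at -0.72 on the other. Atp6v1f turned to 0.13 with the offsets and DMSO-sEV replicates 4 and 5. Autophagy genes had 17 higher and 7 lower of 31. The cargo receptor Sqstm1, p62, was at 489, 459.6, 518, 441 and 429.7 CPM and rose to 1076, 1069, 1053 and 1088 CPM (log2 fold change 1.20, SE 0.061, edgeR adjusted p = 8.87e-16), and Nbr1, a receptor of the same kind, rose by 1.20. Fundc1, a receptor for mitochondria (-0.91), and Gabarapl2, a protein of the growing membrane (-0.89), fell. Fundc1 was called in all 24 alternatives (-1.06 to -0.17), whereas Gabarapl2 missed the threshold in 1 and ranged from -1.15 to -0.099. Iron handling genes were 9 higher and 3 lower of 15. Beside Lcn2, the metalloreductase Steap3 rose from 6.63, 5.35, 7.26, 5.00 and 3.96 CPM to 40.1, 38.3, 42.1 and 50.5 CPM (log2 fold change 2.93, SE 0.16, edgeR adjusted p = 3.52e-15), while Tfrc, the transferrin receptor, fell by 1.05 (adjusted p = 3.72e-09). Steap1, another reductase of that family, was called lower (-0.70) but was at 0.14 with the offsets and DMSO-sEV replicates 4 and 5. NRF2 and antioxidant genes were 13 higher and 13 lower of 34, but 16 and 10 with offsets, 12 and 13 with DMSO-sEV replicates 1 to 3 and 14 and 11 with replicates 4 and 5. Hmox1, heme oxygenase, rose by 1.87 (adjusted p = 6.36e-16) and Abcc1, an exporter of glutathione conjugates, by 1.14, and Gpx1, a glutathione peroxidase (-1.22), and Prdx1, a peroxiredoxin (-1.20), fell.

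Of 40 interferon-stimulated genes 34 were lower and 1 higher, against 36.2% and 38.3% of all genes, with a median of -0.92 (-0.76 with offsets). Ifit1, which binds viral RNA, was at 16.7, 15.4, 20.4, 16.7 and 17.2 CPM in DMSO-sEV cells and 3.57, 4.12, 3.59 and 3.83 CPM in floating cells (log2 fold change -2.19, SE 0.13, edgeR adjusted p = 2.83e-14). Isg15, a ubiquitin-like protein, was at 20.9, 24.5, 23.8, 15.8 and 14.7 CPM and 3.84, 5.40, 3.25 and 3.68 CPM (log2 fold change -2.28, SE 0.17, edgeR adjusted p = 3.33e-12). For both, the highest floating library was well below the lowest DMSO-sEV library. Oasl1, an RNA sensor of the oligoadenylate synthetase family, fell by 1.60, and Ifi47, a GTPase induced by interferon, fell by 3.44 (adjusted p = 4.65e-19). The member that rose was Rnf213, a large ubiquitin ligase (1.02, adjusted p = 1.60e-06), and its change was -0.10 with offsets. At 48 h the same list had 8 higher and 17 lower with a median of -0.064, and the difference between the times was called for 28 genes, all lower at 72 h, against 11% of all genes. Ifit1 at 48 h had 5.85, 5.71, 6.38, 5.97 and 8.92 CPM in floating and 6.56, 5.95, 7.81, 6.62 and 5.63 CPM in DMSO-sEV cells, a log2 fold change of 0.0034. The DMSO-sEV libraries were thus all higher at 72 h than at 48 h, and the floating libraries all lower. The difference between times was -2.19 for Ifit1, -1.59 for Isg15 and -1.71 for Oasl1.

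The pattern GAAA, any pair of bases, GAAA, searched on both strands as a core of the interferon-stimulated response element, was in 18 of 32 promoter windows of this list (56.2%) against 3.61% of all windows and 4.24% of windows of all genes called lower. Stretches of Ifit1 (chr19:34640755-34640824, plus strand), Isg15 (chr4:156200857-156200926, minus strand) and Rsad2, an antiviral enzyme (log2 fold change -1.96, chr12:26456533-26456602, minus strand), are shown on the gene's strand with matches in capitals, and those of Ifit1 and Rsad2 read as the reverse complement.
Ifit1: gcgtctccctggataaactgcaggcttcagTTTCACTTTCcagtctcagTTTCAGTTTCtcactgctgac
Isg15: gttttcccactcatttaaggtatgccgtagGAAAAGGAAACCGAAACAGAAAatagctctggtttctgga
Rsad2: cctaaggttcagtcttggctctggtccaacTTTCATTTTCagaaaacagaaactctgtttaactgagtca
Genes of class I antigen presentation and the immunoproteasome were 5 higher and 7 lower of 18, and the balance turned with the DMSO-sEV libraries. It was 5 higher and 9 lower with replicates 1 to 3 (median -0.13) and 10 higher and 5 lower with replicates 4 and 5 (median 0.43). Psmb10 (-1.63) and Psmb9 (-1.98), catalytic subunits of the immunoproteasome, fell, while Nlrc5, the activator of class I genes, rose by 1.44 (adjusted p = 2.62e-12) and H2-D1, a class I heavy chain, by 0.61 (adjusted p = 0.000305).

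Chemokines and cytokines were higher in 14 of 23 and lower in 5, against 38.3% and 36.2% of all genes. The median was 0.51, and it was 1.18 with offsets, 0.35 with DMSO-sEV replicates 1 to 3 and 0.90 with replicates 4 and 5. Cxcl2, which attracts neutrophils, was at 0.574, 1.67, 2.05, 1.28 and 0.800 CPM in DMSO-sEV cells and 8.52, 9.05, 8.27 and 10.5 CPM in floating cells (log2 fold change 2.84, SE 0.19, edgeR adjusted p = 3.44e-13). Il11, a cytokine of the IL-6 family, was at 2.50, 2.26, 3.31, 1.95 and 2.31 CPM and 10.6, 10.1, 11.6 and 11.4 CPM (log2 fold change 2.16, SE 0.14, edgeR adjusted p = 2.00e-13). Both stood clear of DMSO-sEV cells in every library, at low levels. Tslp, which acts on dendritic cells, fell from 212, 242, 237, 139 and 127 CPM to 78.6, 80.1, 75.5 and 69.6 CPM (log2 fold change -1.33, SE 0.15, edgeR adjusted p = 5.61e-09, and -0.54 with offsets), and Cxcl10, an interferon-induced chemokine, was lower too (-0.91, adjusted p = 5.44e-05). At 48 h 22 genes of the list were higher and 1 lower, and 12 differed between times, each with the lower log2 fold change at 72 h. Cxcl2 had a log2 fold change of 5.08 at 48 h and a difference of -2.24 (adjusted p = 3.95e-05), and Tslp went from 0.49 to -1.33.

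NF-kappa B subunits and feedback inhibitors had 16 higher and 6 lower of 23, with a median of 0.41 that was 0.11 with offsets. Tnfaip2 rose by 1.05 (adjusted p = 1.57e-15) and Traf1, a signalling adaptor, by 1.02 (adjusted p = 1.43e-15), while Birc2, the ubiquitin ligase cIAP1, fell by 0.49 and Map3k14, the kinase NIK, by 0.35. Immediate early genes were higher in 22 of 29 and lower in 4 (median 0.60). Fos, a partner in the AP-1 factor, rose from 1.41, 1.62, 1.31, 1.43 and 1.56 CPM to 8.38, 8.27, 7.58 and 5.64 CPM (log2 fold change 2.35, SE 0.16, edgeR adjusted p = 5.79e-13), and Klf2, a factor also induced by flow in endothelium, by 1.61. Junb (-0.42) and Egr1 (-0.65, adjusted p = 1.93e-06) fell, so the family did not move one way. ERK feedback genes were 11 higher and 5 lower of 19. The phosphatases Dusp1 (1.40) and Dusp8 (1.30) rose, while Dusp6 (-0.44) and Dusp5 (-0.52), which act on ERK itself, and the inhibitor Spry1 (-0.75) fell. Of EGF receptors and ligands, 7 were higher and 1 lower of 11, with the receptors Erbb3 at 0.95 and Erbb2 at 0.71 (0.45 and 0.15 with offsets, the latter no longer called) and the ligand Hbegf at -0.32 (adjusted p = 0.00867) with overlapping groups. Prostaglandin genes were 5 each way of 11. Ptgs1, cyclooxygenase 1, rose from 9.18, 7.27, 8.36, 7.26 and 7.02 CPM to 50.3, 46.8, 57.1 and 56.4 CPM (log2 fold change 2.76, SE 0.13, edgeR adjusted p = 1.50e-16), and Ptges, which makes prostaglandin E2, by 2.01, whereas Pla2g4a, the phospholipase that frees arachidonic acid (-0.69), and Ptgr1, which degrades these lipids (-0.97), fell.

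Genes of DNA replication and of mitosis fell. G1/S and replication genes were lower in 40 of 45 and higher in 2 (median -0.72), and G2/M genes were lower in 36 of 40, with the other 4 not called (median -0.75), against 36.2% of all genes. These medians were -0.72 and -0.63 with offsets. Cdk1, the kinase that drives mitosis, was at 488, 530.2, 448, 359.5 and 359 CPM in DMSO-sEV and 150.2, 167, 165 and 152 CPM in floating cells (log2 fold change -1.46, SE 0.10, edgeR adjusted p = 3.41e-13). Ccne2, cyclin E2 of the G1/S step, was at 112, 139, 117, 81.7 and 76.1 CPM and 25.4, 27.6, 25.1 and 20.6 CPM (log2 fold change -2.08, SE 0.15, edgeR adjusted p = 8.20e-13, and -1.37 with offsets). Floating libraries lay below all DMSO-sEV libraries in both. Mad2l1, of the spindle checkpoint, fell by 1.73 and Rpa3, a subunit of the protein that coats single-stranded DNA, by 1.87. Mki67, the Ki-67 proliferation marker, was not called, at 352, 358, 409, 486 and 459.9 CPM and 452, 488, 465 and 480.1 CPM (0.19, adjusted p = 0.0766), and its estimate was -0.39 with offsets. The replication genes called higher were Gins3, of the replicative helicase (0.23), and Cdt1, a licensing factor (0.13, but -0.14 with offsets).

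The letters TTTGAA, the core of the cell cycle genes homology region, were in 25 of 33 promoter windows of the mitosis list (75.8%), against 14.5% of all windows and 16.7% of windows of genes called lower. They are shown in capitals, on the gene's strand, for Cdk1 (chr10:69352948-69353013, minus strand) and for Ect2, which places the cleavage furrow (log2 fold change -0.96, chr3:27153957-27154022, minus strand).
Cdk1: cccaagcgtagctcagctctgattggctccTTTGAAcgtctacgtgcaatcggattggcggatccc
Ect2: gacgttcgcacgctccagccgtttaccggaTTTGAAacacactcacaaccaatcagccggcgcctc
D cyclins, their kinases and inhibitors had 4 higher and 5 lower of 12. Cdk6 rose by 0.95 (adjusted p = 6.27e-07) and Ccnd2, cyclin D2, by 0.71 (adjusted p = 1.96e-06), while Rbl1, the pocket protein p107, fell by 0.98 and Cdkn2d, an inhibitor of CDK4 and CDK6, by 0.80. The MYC network had 8 higher and 5 lower of 13, with the MYC antagonists Mxd1 (1.55) and Mxd4 (1.45) higher and Mxd3 (-1.46) and Mycl (-0.84) lower. Targets of p53 were 11 higher and 12 lower of 29 (12 and 7 with offsets, 9 and 12 with DMSO-sEV replicates 1 to 3, 11 and 8 with replicates 4 and 5), with the kinase Plk3 at 1.92 against Rrm2b, a ribonucleotide reductase subunit, at -0.74 and Ccng1, cyclin G1, at -0.67. BCL-2 family, caspase and inhibitor of apoptosis genes had 9 higher and 16 lower of 30. Among them Bcl2l11 and Bmf, which encode BIM and BMF, death-promoting proteins linked to loss of attachment in epithelial cells, rose. Bcl2l11 was at 44.2, 44.3, 57.3, 61.9 and 60.1 CPM in DMSO-sEV and 108, 107, 109 and 103 CPM in floating cells (log2 fold change 0.99, SE 0.082, edgeR adjusted p = 2.26e-11), and Bmf at 6.47, 7.12, 7.73, 6.39 and 7.25 CPM and 13.1, 12.3, 13.8 and 13.04 CPM (log2 fold change 0.90, SE 0.089, edgeR adjusted p = 6.17e-10, and 0.51 with offsets). Casp12 went the other way (-1.28).

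Ribosomal protein, respiratory chain and proteasome genes were lower. The counts called lower were 45 of 49 for cytosolic ribosomal proteins (median -0.71), 43 of 43 for nuclear-encoded respiratory chain subunits (median -0.95) and 30 of 31 for constitutive proteasome subunits (median -0.92), and the remaining 4 ribosomal protein genes and 1 proteasome gene were not called. These are short genes, with median transcript lengths of 1232, 1363 and 1819 bases, and log2 fold changes rose with length over all genes, from a median of -0.46 in the shortest of 5 equal bins to 0.41 in the longest. Genes called higher had a median length of 4262 bases, those called lower 2660 and the rest 3143. With offsets the medians were -0.19 for ribosomal proteins, with 9 higher and 30 lower, -0.44 for the respiratory chain and -0.37 for the proteasome. The DMSO-sEV set mattered as well, since with replicates 4 and 5 alone 25 ribosomal protein genes were lower and 3 higher (median -0.25), the respiratory chain had a median of -0.53 and the proteasome -0.57. The part of length or of the DMSO-sEV set in these decreases was not tested further. Rps3 was at 2516, 3076, 2506, 1480.3 and 1432 CPM in DMSO-sEV and 997, 1048, 1051 and 898 CPM in floating cells (-1.14), so replicates 4 and 5 lay between the other 3 and the floating cells. Ndufb8, a subunit of complex I, fell by 1.59 and Psma3, of the proteasome core, by 1.40.

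**Figure D3:**
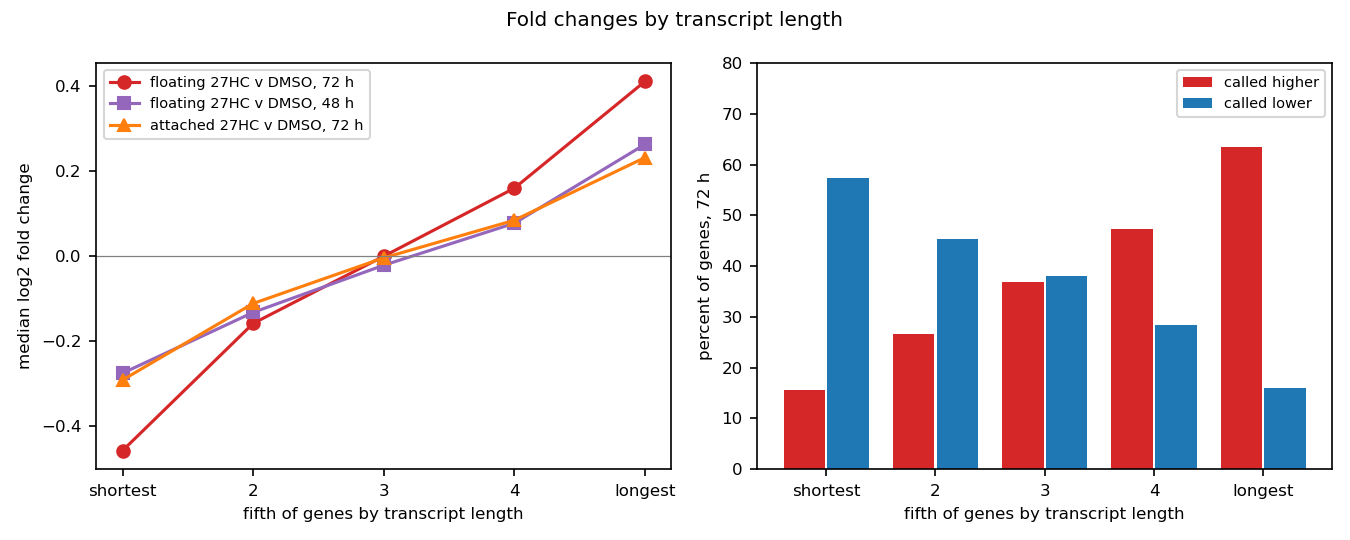
Median log2 fold change (left, 3 comparisons) and percent of genes called higher or lower at 72 h in floating 27HC-sEV against DMSO-sEV cells (right) in 5 equal bins of the genes by transcript length. The medians rise from -0.46 to 0.41 with length, and the share called higher from 15.5% to 63.4%.

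Ribosome biogenesis genes were lower in 24 of 38 and higher in 5. Npm3, a histone chaperone of the nucleolus (-1.22), and Nhp2, of the particles that modify ribosomal RNA (-1.07), fell. The long genes Polr1a, the large subunit of RNA polymerase I (0.45), and Utp20 (0.36) were called higher with overlapping groups, and their changes were -0.32 and -0.14 with offsets. Hypoxia and glycolysis genes were 15 higher and 13 lower of 37. Bhlhe40, a repressor induced by hypoxia, fell from 144, 144, 137, 205 and 227 CPM to 34.4, 41.4, 34.5 and 37.7 CPM (log2 fold change -2.21, SE 0.13, edgeR adjusted p = 1.51e-14), and Aldoc, an aldolase, by 2.27, while Ndrg1, a growth arrest gene, rose from 254, 221, 308, 253 and 245 CPM to 691, 728, 676 and 706 CPM (log2 fold change 1.45, SE 0.071, edgeR adjusted p = 3.07e-16) and Eno2, an enolase, by 2.19.

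Targets of YAP and TEAD were 10 higher and 10 lower of 26, and 3 higher and 15 lower with offsets. With DMSO-sEV replicates 1 to 3 13 were higher and 9 lower, whereas 6 were higher and 13 lower with replicates 4 and 5. Ccn2, the matricellular protein CTGF and a standard readout of YAP, was at 345, 369.5, 301, 359 and 347 CPM in DMSO-sEV cells and 21.4, 24.7, 19.6 and 27.7 CPM in floating cells (log2 fold change -3.88, SE 0.11, edgeR adjusted p = 3.52e-21). Attached 27HC-sEV cells had 132, 137, 122, 105 and 107 CPM, below all DMSO-sEV and above all floating libraries, and the floating against the attached fraction gave -2.37 (adjusted p = 3.94e-15). Gadd45b, a stress gene, fell by 1.74 and Tgfb2, a TGF-beta ligand, was called lower with overlapping groups (-0.49, adjusted p = 0.0419), a call that 11 of 24 alternatives did not make (adjusted p = 0.564 with DMSO-sEV replicates 1 to 3). On the other side were Wwtr1, which encodes TAZ (0.59, adjusted p = 2.30e-11), and Ptpn14, a phosphatase that holds YAP back (0.95, but -0.15 with the offsets and DMSO-sEV replicates 4 and 5).

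Integrin and focal adhesion genes had 18 higher and 9 lower of 33 (10 and 11 with offsets). The integrin chain Itgb6 fell from 8.87, 9.18, 7.52, 8.80 and 8.001 CPM to 1.71, 1.59, 1.97 and 2.42 CPM (log2 fold change -2.15, SE 0.14, edgeR adjusted p = 7.36e-14), and Cav1, of caveolae, by 1.23. Itga8 rose by 1.58 (adjusted p = 3.89e-09) and Itga1, a collagen receptor chain, by 1.22 (adjusted p = 5.37e-07). Itgb1, the beta chain shared by many integrins, was at 1568, 1515, 1359, 1101 and 1023 CPM and 916, 983, 950.2 and 1104 CPM (-0.41, adjusted p = 0.00398), and the groups overlapped, since only DMSO-sEV replicates 1 to 3 were clearly higher. Basement membrane genes were higher in 16 of 25 and lower in 3. These are long genes (median 6091 bases), and with offsets the count was 11 higher and 7 lower. Hspg2, perlecan, rose by 1.83 and the laminin chain Lama5 from 96.0, 102, 117, 140.4 and 123 CPM to 353, 392, 390.5 and 434 CPM (log2 fold change 1.76, SE 0.11, edgeR adjusted p = 7.68e-14), at 0.77 and 0.73 with offsets, and the collagens Col12a1 (-0.68) and Col7a1 (-0.41) were called lower with overlapping groups.

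Matricellular proteins were 6 higher and 7 lower of 18 (5 and 7 with DMSO-sEV replicates 1 to 3, 7 and 5 with replicates 4 and 5). Fn1, fibronectin, rose from 875, 841, 1014, 1505 and 1188 CPM to 2819, 3111, 3121 and 3568 CPM (log2 fold change 1.54, SE 0.17, edgeR adjusted p = 4.82e-09), and its change was 0.77 with offsets. Ccn4 fell from 44.8, 45.2, 41.8, 52.4 and 64.3 CPM to 7.55, 7.19, 8.17 and 7.20 CPM (log2 fold change -2.73, SE 0.11, edgeR adjusted p = 2.81e-18), Postn, periostin, by 2.56 and Sparc, an anti-adhesive matrix protein, by 0.69, while Ccn3 rose by 2.77. The CCN proteins thus moved in opposite directions. Proteases and their inhibitors had 10 higher and 6 lower of 22. Mmp13, a collagenase, was at 32.9, 32.4, 39.1, 23.6 and 21.5 CPM in DMSO-sEV and 151, 202, 133 and 272 CPM in floating cells (log2 fold change 2.67, SE 0.19, edgeR adjusted p = 5.77e-13), and at 41.8, 42.9, 48.3, 46.7 and 42.1 CPM in attached 27HC-sEV cells. It was higher in each floating library than in any attached one, with wide spread among them. Mmp9, a gelatinase, fell from 187, 184, 149, 161 and 156 CPM to 31.9, 34.9, 32.3 and 41.0 CPM (log2 fold change -2.26, SE 0.15, edgeR adjusted p = 2.83e-13). Serpine2, a serine protease inhibitor, rose by 2.16. Actin and myosin genes were lower in 17 of 32 and higher in 10, with the calponin Cnn2 (-1.19, adjusted p = 7.28e-19) and the myosin light chain Myl6 (-1.11) lower and the formin Diaph1 (1.05, adjusted p = 5.26e-14) and the kinase Limk1 (0.97) higher.

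Epithelial genes moved in either direction. Of 41 cadherin, desmosome, tight junction and keratin genes, 17 were higher and 13 lower (median -0.02), and 13 and 15 with offsets. The median was 0.11 with DMSO-sEV replicates 1 to 3 and 0.088 with replicates 4 and 5. Cdh1, E-cadherin, was at 237, 222, 214, 210.0 and 186 CPM in DMSO-sEV and 269.9, 276, 285 and 330.2 CPM in floating cells (log2 fold change 0.44, SE 0.13, edgeR adjusted p = 0.00387), above every DMSO-sEV library. With offsets its change was 0.20 and no longer called (adjusted p = 0.156). Dsp, desmoplakin, rose by 1.51 (adjusted p = 1.47e-11) and Ppl, periplakin, by 1.23. Krt7 (-1.26), Krt14 (-1.93) and Krt8 (-0.68), keratin filament genes, and Cldn12, a claudin (-1.36), fell. Epcam was at 433, 427, 409.6, 242 and 249 CPM and 222, 252, 242 and 280.4 CPM (-0.50, adjusted p = 0.00403), and the decrease rested on DMSO-sEV replicates 1 to 3, as the value with replicates 4 and 5 alone was 0.035.

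Mesenchymal genes were 7 higher and 5 lower of 13. Vim, vimentin, was at 1789, 1663, 1734, 1806 and 1879.9 CPM in DMSO-sEV and 2223, 2279, 2290.4 and 2292 CPM in floating cells (log2 fold change 0.36, SE 0.044, edgeR adjusted p = 4.06e-08, and 0.65 with offsets), a small change with no overlap. Pdgfra, a growth factor receptor of fibroblasts, rose by 2.07 (adjusted p = 1.64e-14) and S100a4 fell from 942, 1114, 1001, 550.0 and 484 CPM to 291, 286, 313 and 216 CPM (log2 fold change -1.57, SE 0.18, edgeR adjusted p = 1.86e-08, and -0.55 with offsets). Factors linked to the epithelial-mesenchymal transition, not all of them promoters of it, had 11 higher and 4 lower of 17 (median 0.39), and 9 higher and 6 lower with offsets. Zeb2 was at 40.5, 41.7, 43.9, 55.2 and 57.3 CPM and 81.6, 75.2, 77.8 and 79.2 CPM (log2 fold change 0.71, SE 0.094, edgeR adjusted p = 1.14e-07), while its relative Zeb1, at a much lower level, went from 1.77, 1.37, 1.37, 2.22 and 2.93 CPM to 0.833, 0.388, 0.640 and 0.856 CPM (log2 fold change -1.54, SE 0.27, edgeR adjusted p = 1.21e-05). The repressor Snai1 was not called, at 9.86, 11.1, 8.41, 10.5 and 10.0 CPM and 8.06, 8.86, 8.76 and 11.5 CPM (-0.11, adjusted p = 0.369). Sox9 rose by 1.15 (adjusted p = 3.04e-12) and Id2, an inhibitor of basic helix-loop-helix factors, by 0.996, and its relative Id3 (-0.84) and the Krüppel-like factor Klf8 (-0.68) fell. Members of each of these families therefore moved in either direction.

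Markers of mammary stem cells and metastasis had 11 higher and 2 lower of 19 (median 0.34), 9 and 5 with DMSO-sEV replicates 1 to 3 and 14 and 2 with replicates 4 and 5. Cd44, the hyaluronan receptor, was at 533, 499, 495, 388 and 351 CPM in DMSO-sEV and 568, 629, 607 and 676 CPM in floating cells (log2 fold change 0.45, SE 0.11, edgeR adjusted p = 0.000925), above all DMSO-sEV libraries, with replicate 1 of the latter closest, and the change was 0.28 against replicates 1 to 3 and 0.76 against replicates 4 and 5. L1cam, an adhesion molecule, rose by 1.59 and Aldh3a1, an aldehyde dehydrogenase, by 1.77. Abcg2, a drug exporter found on stem cells, fell from 25.8, 28.8, 23.6, 15.5 and 18.9 CPM to 3.61, 3.92, 3.05 and 2.57 CPM (log2 fold change -2.76, SE 0.19, edgeR adjusted p = 4.10e-13). Transporters listed as drug efflux and related genes were 6 higher and 2 lower of 11 (4 each way with offsets), with Abcc4 at 1.27 and Abcb10 at -0.69. Notch genes were 9 higher and 3 lower of 15 (6 and 4 with offsets). The ligands Dll1 (1.67) and Dll4 (1.49) rose, and the targets Nrarp (-1.11, adjusted p = 3.30e-15) and Hes1 (-0.71, adjusted p = 5.17e-11) fell. Wnt genes were higher in 15 of 27, with the other 12 not called, and 9 higher and 6 lower with offsets, with the receptor Fzd5 at 1.49 and the factor Lef1 at 1.40. TGF-beta and BMP genes were higher in 21 of 33 and lower in 7, against 38.3% and 36.2% of all genes, and in 17 and 10 with offsets. Tgfbr3, betaglycan, a co-receptor for TGF-beta, went from 1.83, 1.96, 2.52, 4.17 and 2.71 CPM to 21.6, 24.2, 23.8 and 26.5 CPM (log2 fold change 3.15, SE 0.15, edgeR adjusted p = 1.72e-16), and Acvr1b, a type I receptor, rose by 1.099. Tetraspanin and vesicle biogenesis genes were 7 higher and 13 lower of 28 (14 and 11 with offsets, 8 and 15 with DMSO-sEV replicates 1 to 3, 10 and 9 with replicates 4 and 5), with Cd82 (0.94) and the sorting protein Hgs (0.60) higher and Anxa1, annexin A1 (-1.14), and Rab27b, which docks vesicles for release (-0.97), lower.

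**Figure D4:**
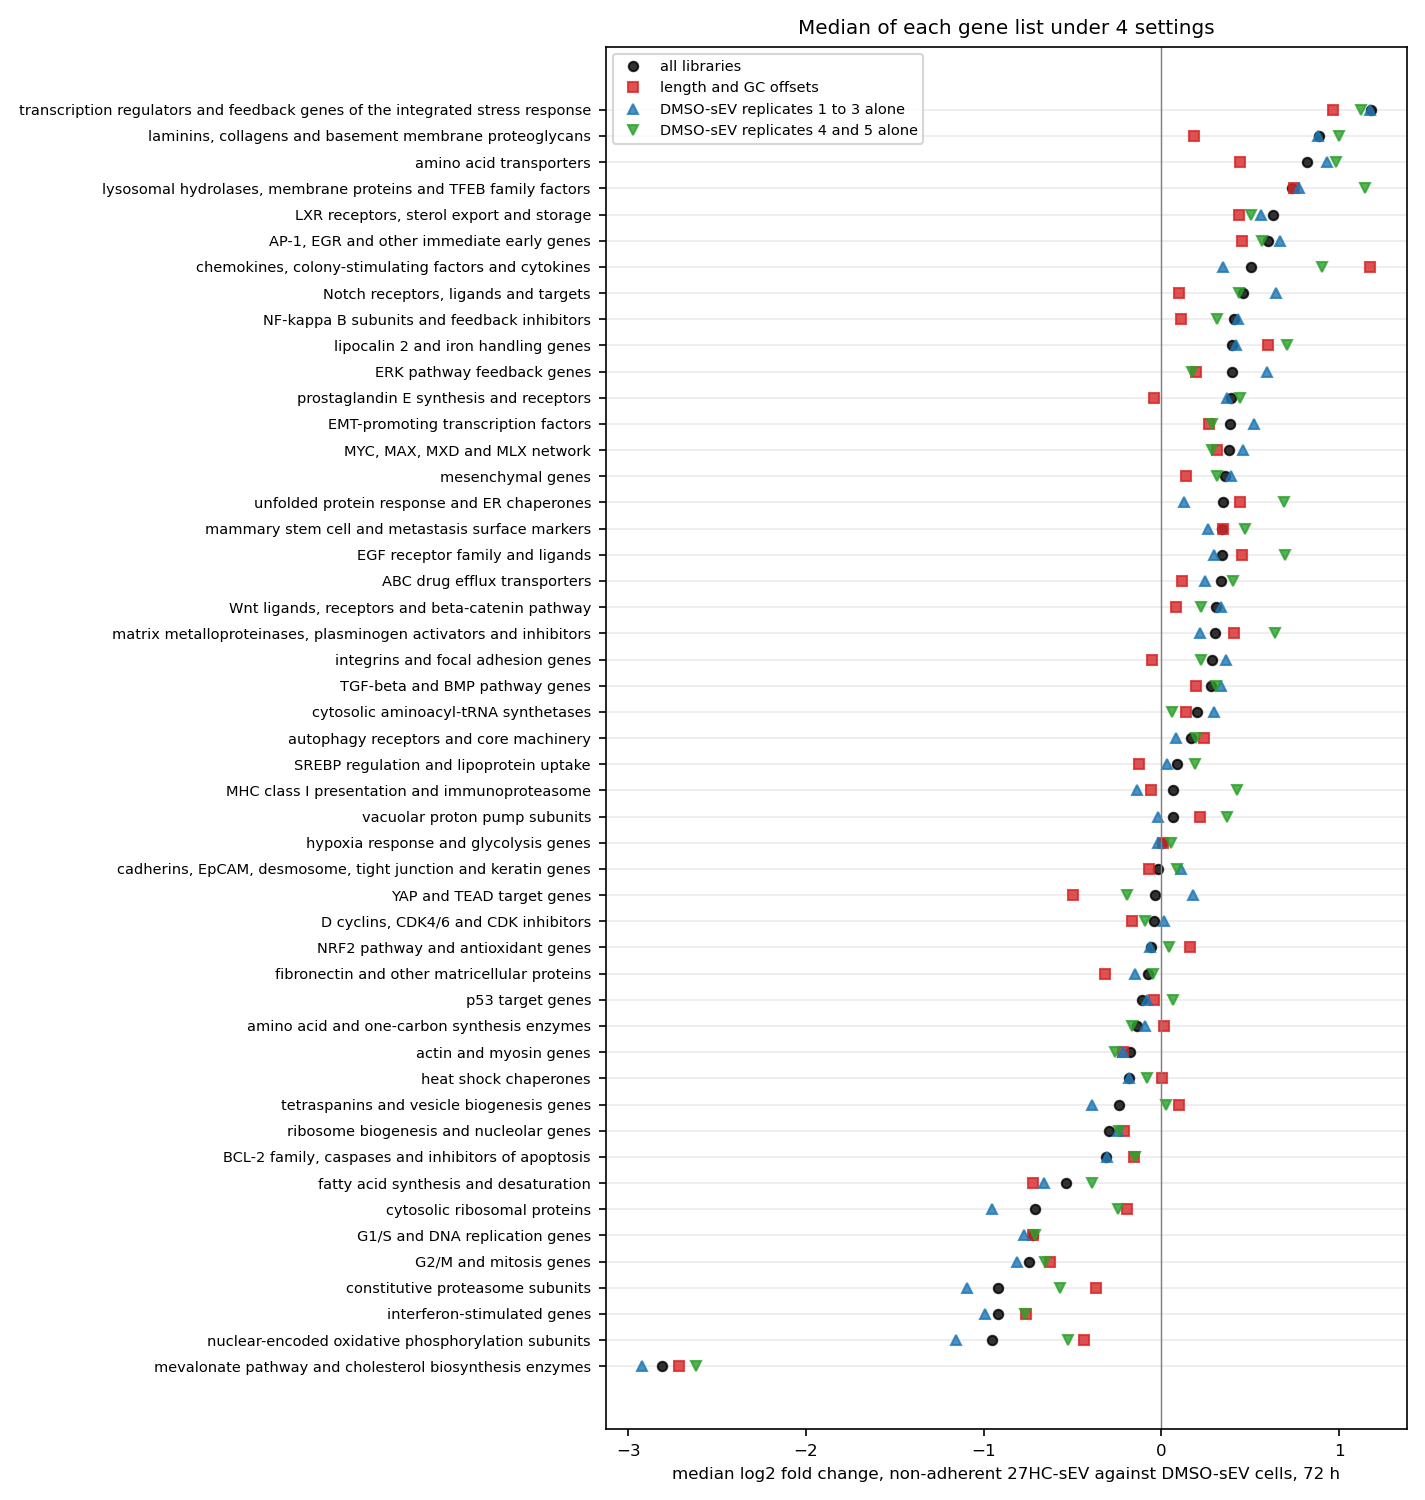
Median log2 fold change of floating 27HC-sEV against DMSO-sEV cells at 72 h for each gene list with at least 9 tested genes, with all libraries, with length and GC offsets, and with DMSO-sEV replicates 1 to 3 or 4 and 5 alone. Sterol synthesis is lowest in all 4 settings (-2.92 to -2.62), and the lists of short genes move toward 0 with offsets.

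Attached 27HC-sEV cells at 72 h, compared with the same DMSO-sEV libraries, had 4160 genes higher (32%) and 4340 lower (33.4%). Since both comparisons use these libraries, values are given side by side only. Sterol synthesis had a median of -2.65 in attached and -2.81 in floating cells, and Hmgcs1 was at 46.4 CPM (SD 2.09, n = 5) in the former. In floating cells it was at 46.9 CPM (SD 2.15, n = 4). Stress response regulators had medians of 1.29 and 1.18, and interferon-stimulated genes -0.78 and -0.92. The fractions themselves differed less. Between floating and attached 27HC-sEV cells, 1915 genes were higher (14.7%) and 1662 lower (12.8%), with at least a 2-fold change in 132 (1.01%) and 51 (0.392%). Single libraries moved these counts, to 1125 and 910 without attached replicate 2, 1236 and 1012 without floating replicate 1, 1208 and 981 without floating replicate 3, and 1278 and 925 without floating replicate 4. With the replicate number as a block they were 2765 and 2738. With offsets they were 1519 and 1117, and 53.9% of the genes called without them were called in the same direction. The median change between the fractions rose with transcript length, from -0.17 in the shortest of 5 equal bins to 0.15 in the longest. Of the sterol synthesis genes 4 were lower in floating cells and 17 not called. Hmgcs1 had a difference of 0.013 (SE 0.048, adjusted p = 0.858), Ddit3 of -0.083 (SE 0.11, adjusted p = 0.586) and Ifit1 of -0.094 (SE 0.14, adjusted p = 0.632). A p above the threshold does not show that the fractions were alike.

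Lists of attachment and matrix varied in their calls between the fractions, against 14.7% higher and 12.8% lower of all genes. Targets of YAP and TEAD were 3 higher and 10 lower of 26, and actin and myosin genes 3 and 8 of 32. Leaving out each library in turn gave 6 to 10 and 6 to 8 lower. Integrin and focal adhesion genes were 4 higher and 6 lower of 33 and matricellular genes 3 and 5 of 18. Basement membrane genes were 3 higher of 25 with 22 not called. Single genes named above differed as well. In floating against attached 27HC-sEV cells the changes were 2.10 for Mmp13 (adjusted p = 3.57e-09), -1.70 for Ctsw, -1.64 for Fgfbp1, -1.53 for Postn (adjusted p = 1.55e-07) and -1.37 for Itgb6. Epithelial-mesenchymal transition factors were higher in 9 of 17, against 14.7% of all genes, and the other 8 were not called, with Zeb2 at 0.38 (adjusted p = 0.00492) and Sox9 at 0.40. Epithelial junction and keratin genes were lower in 14 of 41 and higher in 2, against 12.8% and 14.7% of all genes, with Cldn12 at -0.69 and Krt14 at -0.71, while Cdh1 was not called (-0.21, adjusted p = 0.232). Vim was higher by 0.32 in floating cells (adjusted p = 9.26e-06), and Bcl2l11 by 0.49 (adjusted p = 0.000175). Hypoxia and glycolysis genes were lower in 19 of 37, against 12.8% of all genes, and not called in the other 18. Leaving out each library in turn gave 8 to 9 transition factors higher, 12 to 14 epithelial genes lower and 17 to 19 hypoxia and glycolysis genes lower. These counts and changes between the fractions are from fits without offsets.

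The same comparison at 48 h had 4313 genes higher (33.2%) and 4342 lower (33.4%), and the log2 fold change differed between 72 and 48 h for 1431 genes upward and 1432 downward (11% each, 22% in all). No library was shared between the times. This count depended on the DMSO-sEV libraries, as it was 506 upward and 627 downward with replicates 4 and 5 alone and 2444 and 2862 with replicates 1 to 3. With offsets it was 1264 and 1332, and 59.4% of the genes called without them were called in the same direction. The difference was called for 23 of 40 mitosis genes and 19 of 45 replication genes, all with the lower value at 72 h, and for 16 ribosome biogenesis genes upward and 1 downward. With DMSO-sEV replicates 4 and 5 alone these counts were 20 mitosis, 7 replication and 10 ribosome biogenesis genes, and that of interferon-stimulated genes was 25. In the sterol synthesis list it was called for 3 genes upward and 1 downward, and Hmgcs1 was at -3.44 at 48 h and -3.44 at 72 h. Basement membrane genes differed in 15 of 25, all upward, but in 2 with replicates 4 and 5 alone. S100a4 was at -0.11 at 48 h against -1.57 at 72 h (difference -1.45, adjusted p = 0.000154). Among genes with the smallest adjusted p of the difference, Nup210, of the nuclear pore, went from -0.70 to 0.42 (but -0.26 at 72 h with offsets), Niban1, a stress protein, from 1.58 to 2.64 and Specc1, a cytoskeletal protein, from 0.13 to 0.91. In the other direction Neurl3, a ubiquitin ligase, went from 1.43 to 0.067 and Fam110c from 0.48 to -0.53.

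**Figure D5:**
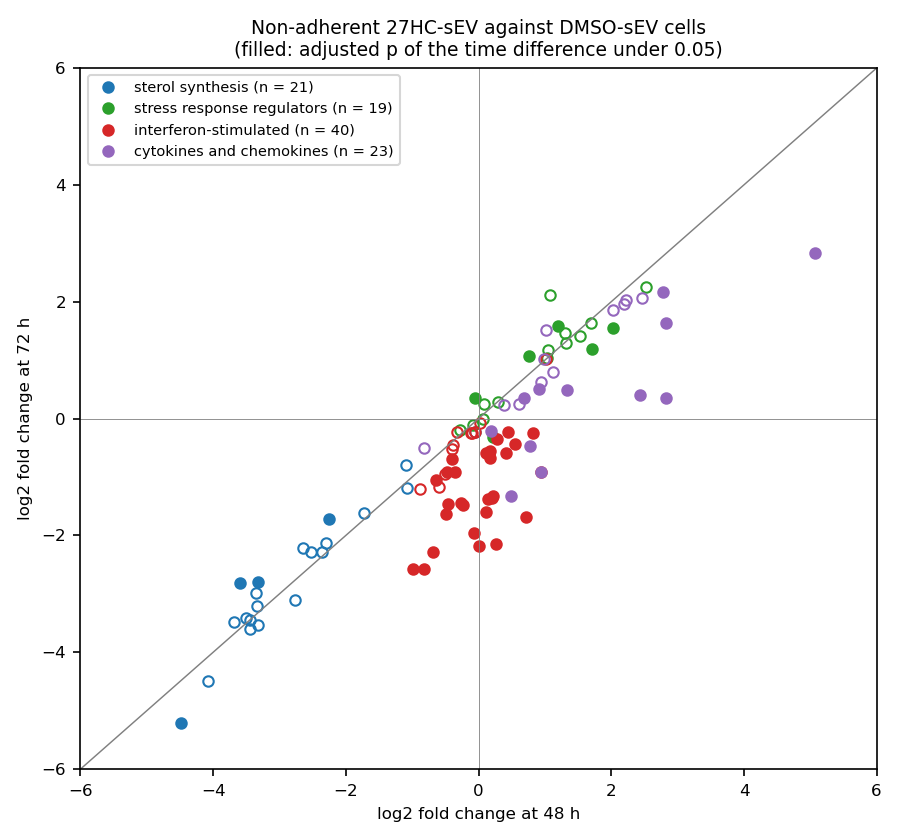
Log2 fold change of floating 27HC-sEV against DMSO-sEV cells at 72 h (vertical) and 48 h (horizontal) for the genes of 4 lists, with the line of equal values, filled where the difference between times had an adjusted p under 0.05. Sterol synthesis genes lie along the line, while 28 of 40 interferon-stimulated and 12 of 23 cytokine genes are filled and lie below it.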

How the data were processed

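Polyadenylated RNA of 4T1 cells was sequenced, and the authors deposited estimated counts per gene from Salmon 1.10.0 (GRCm39 and mm39 are the builds named), per the submitters' processing notes. The step from transcripts to genes is not given in the sources used here. Of the deposited estimated counts 40.8% were not whole and were rounded. A deposited table of log2 CPM, which the authors gave for 13087 genes, was used in 1 alternative.

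Genes with at least 10 counts in enough libraries (and 15 in all) were kept, 13008 of 39253. All 6 groups (29 libraries) were fitted together with edgeR 4.0.16 in R 4.3.3 (TMM factors, robust quasi-likelihood), and p-values were Benjamini-Hochberg adjusted over all genes, called under 0.05. An SE was taken as the absolute log2 fold change over the root of its F value. The main test was also run once on simulated counts in which 200 of 13008 genes were changed. It recovered 88.1% of 1.5-fold, 98.5% of 2-fold and 100% of 4-fold changes, with 11 false calls. The simulated counts held neither the split of the DMSO-sEV libraries nor the trend with transcript length. They therefore do not give the error of the calls made here. The p-values in the report are adjusted ones from the fit of all 6 groups, unless another setting is named. Depths of 18.8 to 26.6 M reads in the floating and DMSO-sEV libraries at 72 h, and up to 31.4 M among all 29, set the precision of low genes. Alternatives were other factors, filters, rounding, a replicate block, fewer groups or libraries, limma 3.58.1, DESeq2 1.42.0, and offsets from transcript length and GC (longest GENCODE transcript on GRCm38, 12397 genes). Promoters came from RefSeq tables of GRCm38.p6, another build than that of the counts, matched by gene.

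Genes were named by a rule: the 12 largest changes each way (mean log2 CPM of at least 3, libraries not overlapping), 2 each way per gene list (mean log2 CPM of at least 1), 17 chosen markers, and 5 each way with the smallest adjusted p of the time difference. Of these 211, nearly all are described, some are not reported here, and Atf3, Chac1, Gaa, Mcoln1, Rsad2 and Ect2 (for their promoters), Ggps1 (for its turn in direction) and 3 granulocyte markers were added after values were seen. The comparison, the 57 gene lists and the markers were chosen with earlier results of these data known.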

Additional observations from a re-analysis of the deposited data

Results flagged for a closer look

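The difference between times of the log2 fold change had an adjusted p under 0.05 (edgeR) for 96 of the 201 genes named here, 43 upward at 72 h and 53 downward, against 22% of all genes. The named genes are not a sample of all genes, since they were chosen by their changes at 72 h and, for 10 of them, by this difference. With DMSO-sEV replicates 4 and 5 alone, 42 of the 96 missed the threshold and kept their sign, and with replicates 1 to 3 alone all 96 kept sign and call. With offsets 59.4% of all genes called for the difference kept direction and call. Over 34 alternatives it shrank to 0.12 for Lrp1 (not called in 9), -0.057 for Rpa3 (in 4), 0.050 for Lama5 (in 4) and 0.0099 for Hgs (in 3). Other genes lost the call more often. Col12a1, Gpx1 and Ptges missed it in 19 each, and Xdh in 16 with its sign turned in 1 more. Il11 and Shmt1 missed it in 14 each, Fads2 in 13, and Grn and Ndrg1 in 12 each. For Ifit1, Dusp6 and Fam110c, among others, it was called in all 34.

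Among sterol and lipid genes the difference was -0.97 for Insig1, -0.74 for Idi1 and -0.42 for Stard4. Genes of that group with an upward difference had 0.73 for Lrp1, 0.41 for Fads2 and 0.37 for Acsl1. Among stress response, amino acid and chaperone genes the difference was -0.79 for Crebrf, -0.73 for Cth, -0.54 for Ddit4, -0.28 for Dars and -0.24 for Shmt1. Upward, it was 0.66 for Slc6a9, 0.62 for Ero1b, 0.53 for Aars and 0.50 for Slc7a11. Among lysosome, autophagy, iron and antioxidant genes the difference was -0.71 for Ctsh, -0.61 for Gabarapl2, -0.60 for Fundc1, -0.52 for Gpx1 and -0.47 for Atp6v1g1. On the upward side of the same group it was 1.01 for Steap3, 0.99 for Hmox1, 0.84 for Abcc1, 0.83 for Lcn2, 0.58 for Grn, 0.50 for Atp6v0a2 and 0.37 for Nbr1. Among interferon-stimulated and antigen presentation genes the difference was -2.19 for Ifit1, -1.86 for Cxcl10, -1.71 for Oasl1, -1.59 for Isg15 and -0.61 for Psmb10. Among cytokine, NF-kappa B, immediate early and growth factor genes the difference was -2.24 for Cxcl2, -1.82 for Tslp, -0.91 for Klf2, -0.85 for Egr1, -0.78 for Dusp6, -0.62 for Il11, -0.59 for Tnfaip2, -0.57 for Dusp1, -0.41 for Junb and -0.34 for Birc2. It was upward for Erbb2, at 0.63. Among cell cycle, apoptosis and MYC network genes the difference was -1.05 for Mxd3, -0.96 for Rpa3, -0.92 for Ccne2, -0.77 for Mad2l1, -0.59 for Casp12, -0.57 for Cdkn2d, -0.51 for Cdk1, -0.51 for Rbl1, -0.45 for Mxd1, -0.34 for Bcl2l11 and -0.31 for Rrm2b. Upward, it was 0.75 for Ccnd2. Among adhesion, matrix, protease and actin genes the difference was -0.62 for Mmp9 and -0.30 for Wwtr1. On the upward side of the same group it was 1.06 for Tgfb2, 0.87 for Diaph1, 0.81 for Hspg2, 0.77 for Col12a1, 0.73 for Fn1, 0.66 for Gadd45b, 0.55 for Limk1 and 0.54 for Lama5. Among epithelial, mesenchymal and developmental signalling genes the difference was -1.45 for S100a4, -0.64 for Id3 and -0.52 for Nrarp. Genes of that group with an upward difference had 1.02 for Dll1, 0.94 for Tgfbr3, 0.71 for L1cam, 0.69 for Pdgfra, 0.58 for Fzd5, 0.55 for Cdh1, 0.49 for Acvr1b and 0.34 for Krt14. Among the remaining genes it was 1.61 for Prl2c3, -1.37 for Neurl3, 1.32 for Prl2c2, -1.25 for Ifi47, 1.12 for Nup210, 1.05 for Niban1, -1.005 for Fam110c, 0.88 for Abcc4, 0.78 for Specc1, -0.74 for Ctsw, 0.71 for Dio2, -0.67 for Rab27b, 0.63 for Ptgs1, 0.63 for Camk1d, -0.62 for Ptgr1, -0.52 for Ptges, -0.46 for Anxa1, 0.29 for Xdh, -0.28 for Ndrg1 and 0.24 for Hgs.

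In 14 of 402 groups of libraries at 72 h (floating or DMSO-sEV, 201 genes), 1 library lay far from the others by Dixon's ratio, and chance alone flags about 1 in 20 groups. Replicate 1 of the floating cells stood apart from the other 3 in 2 genes, where Cdt1 was at 84.2 CPM against 89.4 to 89.7 CPM and Derl2 was at 37.3 CPM against 40.6 to 40.7 CPM. Replicate 2 stood apart in 3 genes, in which Camk1d was at 40.9 CPM against 42.9 to 43.1 CPM, Dsp was at 256 CPM against 279 to 282 CPM and Krt8 was at 616 CPM against 578 to 584 CPM. Replicate 3 stood apart in Specc1, which was at 296 CPM against 267 to 272 CPM. Replicate 4 of the floating cells stood apart from the other 3 in 4 genes, where Atp6v1f was at 43.5 CPM against 48.5 to 49.2 CPM, Cd82 was at 43.3 CPM against 36.8 to 37.1 CPM, Grn was at 238 CPM against 193 to 198 CPM and Idi1 was at 20.05 CPM against 23.7 to 24.1 CPM. In DMSO-sEV cells Cxcl10 was at 9.78 CPM in replicate 3 against 5.35 to 6.24 CPM, Krt14 was at 54.4 CPM in replicate 3 against 61.4 to 63.3 CPM, Oasl1 was at 22.9 CPM in replicate 3 against 17.7 to 19.02 CPM and Slc7a11 was at 14.6 CPM in replicate 1 against 12.05 to 12.8 CPM.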

How the results depend on the processing

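Counts of genes higher and lower in floating 27HC-sEV than in DMSO-sEV cells at 72 h stayed within 1.5 times of 4980 and 4705 in every alternative run, among them DESeq2 (4960 and 4764), limma-voom (5030 and 4613) and the length and GC offsets (4465 and 4231). Leaving out each library in turn gave 4822 to 5050 higher and 4396 to 4809 lower. The ranges were 4044 to 4351 and 3853 to 4369 at 48 h, 3920 to 4270 and 3912 to 4532 for attached 27HC-sEV cells, 1121 to 1798 and 1044 to 2325 for the difference between times, and 1125 to 1979 and 910 to 1929 for floating against attached 27HC-sEV cells. The difference between times had 2162 genes lower without DMSO-sEV 72 h replicate 4 and 2325 without replicate 5. Floating against attached cells had 1125 higher and 910 lower without attached replicate 2, 1236 and 1012 without floating replicate 1, 1208 and 981 without floating replicate 3, and 925 lower without floating replicate 4. It also had 970 higher with no filter on low counts and 2923 lower when only these groups were fitted. The difference between times had 2444 higher and 2862 lower with DMSO-sEV replicates 1 to 3, 506 and 627 with replicates 4 and 5 (fewer libraries), and, in a setting chosen after seeing the data, 484 and 735 with offsets and replicates 4 and 5. For these counts the cause was not tested.

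With the replicate number as a block, 5158 genes were higher and 4784 lower at 72 h, 1917 and 1969 for the difference between times, and 2765 and 2738 for floating against attached cells, the last over 1.5 times the 1662 without the block. Deviations from the group means of same-numbered libraries correlated at 0.026 to 0.078 for floating and DMSO-sEV cells at 72 h, -0.023 to 0.086 for floating and attached 27HC-sEV cells, -0.102 to 0.0122 for floating and DMSO-sEV cells at 48 h, and -0.103 to 0.0705 for floating cells at both times. None of these reached 0.1, and the numbers were not used to pair the samples in these comparisons. Differently numbered floating and DMSO-sEV libraries at 72 h gave -0.093 to 0.063, so the same-numbered ones lay toward the upper end. Attached 27HC-sEV and DMSO-sEV cells at 72 h gave -0.057 to 0.19 with the same number (1 of 5 over 0.1). With different numbers they gave -0.25 to 0.19. Whether the numbers pair the samples is not settled by these values. For same-numbered DMSO-sEV libraries at 48 and 72 h the correlations were 0.00998 to 0.368, with 4 of 5 over 0.1, so the number was not without structure there.

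Direction turned for few genes, and the cause was not tested. With offsets Cdt1 was at -0.14, Mki67 -0.39, Ncl (nucleolin) -0.090, Nup210 -0.26, Polr1a -0.32, Rnf213 -0.10 and Utp20 -0.14, and the difference between times of Dars was 0.053. With replicates 1 to 3 Neurl3 was at -0.059, and with replicates 4 and 5 Cd63 was at 0.10, Epcam 0.035 and Utp20 -0.065. The settings that joined offsets with either set of DMSO-sEV libraries were chosen after seeing the data. Offsets with replicates 1 to 3 gave -0.096 for Cdt1, -0.40 for Mki67, -0.13 for Ncl, -0.32 for Nup210, -0.15 for Polr1a, -0.0097 for Rnf213 and 0.064 for Snai1, and 0.10 for the time difference of Dars. Offsets with replicates 4 and 5 gave 0.13 for Atp6v1f, -0.19 for Cdt1, -0.019 for Elf3, 0.071 for Epcam, 0.026 for Itgb1, -0.37 for Mki67, -0.024 for Ncl, -0.17 for Nup210, -0.53 for Polr1a, -0.15 for Ptpn14, -0.23 for Rnf213, 0.14 for Steap1 and -0.41 for Utp20, and -0.013 for the time difference of Xdh. Of all values for single genes and lists under the alternatives, 8938 kept direction and call or moved within the spread, 321 list medians moved beyond it, 371 values missed the threshold, 7 newly passed it and 34 turned sign.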
